A study of Homo sapiens with 12 samples.

Results

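The genes described here are 8 genes of the prostate epithelial lineage and of its steroid receptor signalling, namely NR3C1, HOXB13, FOXA1, SPDEF, KLK3, TMPRSS2, STEAP1 and FOLH1, chosen by name. Of these, 7 matched a gene name in the deposited counts, out of 32077 genes in all. TMPRSS2 matched no row and was not analysed here. No gene in these counts had 0 in all 12 samples, so genes without reads may have been left out of them. Whether TMPRSS2 had reads is therefore not known. The counts came from RNA-seq of the established human lines PC3 and DU145, which were derived from prostate tumours, grow without androgen and are given as wild type in the labels. Each line was kept in 6-well plates for 48 hours with vehicle or with 2.5 μmol/L pentamidine, an aromatic diamidine drug used against protozoa and Pneumocystis. The 12 samples fell into 4 groups of 3. Each line stands for the cells of 1 tumour, so a difference between the lines is a difference between these lines only. The labels do not say whether the samples of a group were separate cultures, and the p-values therefore measure the spread between these samples.

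In the normal prostate and in most prostate tumours, luminal epithelial cells respond to androgen, which acts through a steroid receptor that binds DNA after hormone enters the cell. FOXA1 opens chromatin for steroid receptors, HOXB13 is a homeobox factor of the prostate lineage, and SPDEF is an ETS factor of secretory epithelium. KLK3, which encodes prostate-specific antigen, and TMPRSS2 are classical androgen-induced genes. STEAP1 and FOLH1 encode cell surface proteins of prostate cancer, and FOLH1 is known as prostate-specific membrane antigen. NR3C1 encodes the glucocorticoid receptor, a steroid receptor that recognises the same DNA element as the one that androgen binds.

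Total counts per sample ranged from 13514195 to 15131436, and no replicates of a group were alike within sampling noise (chi-square of 1.72 to 7.3 per gene on average). Levels are given as CPM (counts scaled to the library total) after edgeR's TMM normalization, and as CPM per kilobase of exon (RPKM) where genes are compared with each other. Of the 4 epithelial markers, KRT8 and KRT18, which encode keratins of simple epithelium, were detected in every sample, and KRT8 had a mean of 20.2 CPM in vehicle-treated PC3 cells and 2712 CPM in vehicle-treated DU145 cells. The other epithelial markers, EPCAM and CDH1, were at or near 0, with at most 2 and 10 counts in any sample. Both are commonly detected in DU145 cells, the lines were kept as the labels give them, and whether this bears on the lineage genes near 0 was not tested. The summed level of the markers of other cell types ranged over all samples from 0.0709 to 0.583 CPM for immune cells, from 0.0709 to 1.15 CPM for endothelial cells and from 0.27 to 3.14 CPM for fibroblasts. Basal markers summed to between 0.0701 and 1.35 CPM.

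A gene was taken as on in a line where every vehicle sample had at least 1 CPM, and as at the limit of detection where every vehicle sample had 3 counts or fewer. By this rule 3 of the 7 genes were on in PC3 cells, namely NR3C1, STEAP1 and FOXA1. HOXB13 was present there at a trace below 1 CPM. In DU145 cells 2 of the 7 were on, NR3C1 and STEAP1, with FOXA1 at a trace. SPDEF, KLK3 and FOLH1 were at the limit of detection in both lines, and HOXB13 was so in DU145 cells. The same genes were on, at a trace or at the limit of detection in the pentamidine-treated samples when the rule was applied to them.

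Per kilobase of exon, NR3C1 was the highest of the 7 genes in each group. In vehicle-treated PC3 cells it had 6.64 ± 0.301 RPKM (SD, n = 3), above 80.6% of the 31961 genes with a known length. STEAP1 followed with 1.45 ± 0.384 RPKM, and FOXA1 had 1.24, 1.01 and 1.3 RPKM in its 3 samples, so that this neighbouring pair overlapped. HOXB13 came next with 0.232 ± 0.0392 RPKM, below every sample of FOXA1. In vehicle-treated DU145 cells NR3C1 had 6.66 ± 0.686 RPKM, STEAP1 1.1 ± 0.187 RPKM and FOXA1 0.179 ± 0.126 RPKM, with no overlap between neighbours. The order of the 3 genes at the limit of detection has no meaning at 0 to 2 counts per sample.

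**Figure D1:**
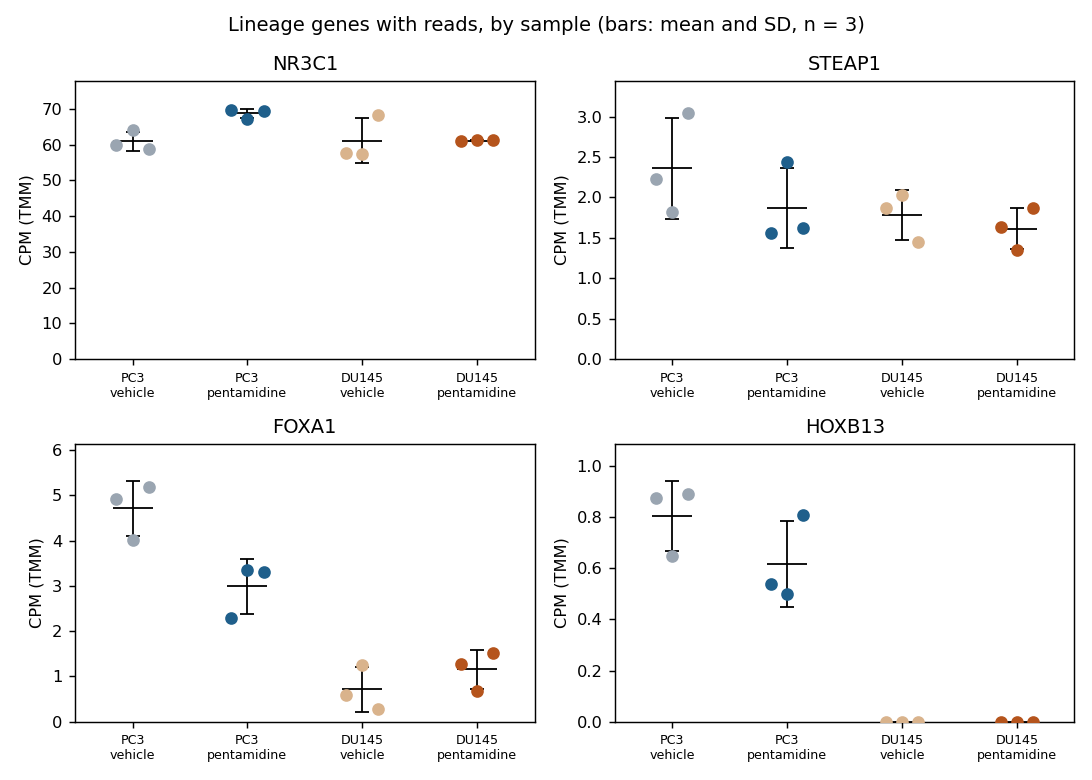
Level of the 4 lineage genes with more than 3 counts in some sample, in CPM on a linear axis from 0, by group. Each point is 1 sample and the bars give the mean and SD of 3 samples. The group means of NR3C1 lay between 60.9 and 68.7 CPM, FOXA1 was highest in vehicle-treated PC3 cells, and HOXB13 was at 0 in all 6 DU145 samples.

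NR3C1 (chromosome 5, 143277931 to 143435512, minus strand, GRCh38) had 890, 987 and 791 counts in vehicle-treated PC3 cells and 770, 819 and 995 in vehicle-treated DU145 cells. Its level did not differ between the lines beyond the spread between samples, with 60.9 ± 2.76 CPM in PC3 cells and 61.1 ± 6.29 CPM in DU145 cells (SD, n = 3). The log2 difference was -0.03 with a 95% interval from -0.19 to 0.13 (adjusted p = 0.735, from the quasi-likelihood test of edgeR with Benjamini-Hochberg adjustment over all genes tested). In bulk RNA a lower level in each cell and fewer cells with the RNA cannot be told apart, here and for the genes that follow.

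STEAP1 (chromosome 7, 90154375 to 90164829, plus strand), which encodes a metalloreductase-like protein of the cell surface, had 33, 28 and 41 counts in vehicle-treated PC3 cells and 25, 29 and 21 in vehicle-treated DU145 cells. The groups overlapped, and the log2 difference of PC3 over DU145 cells was 0.37 with a 95% interval from -0.2 to 0.94 (adjusted p = 0.239, edgeR's quasi-likelihood test). This interval does not separate the lines.

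FOXA1 (chromosome 14, 37589984 to 37596059, minus strand) had 73, 62 and 70 counts in vehicle-treated PC3 cells and 8, 18 and 4 in vehicle-treated DU145 cells. The samples of the lines did not overlap, and even the highest DU145 sample had fewer reads than the lowest PC3 sample. The level was 4.71 ± 0.615 CPM against 0.712 ± 0.504 CPM (SD, n = 3), a log2 difference of 2.68 (standard error 0.33, 95% interval 1.99 to 3.38, adjusted p = 2.09e-06, edgeR's quasi-likelihood test). FOXA1 was the 1 of the 3 members tested that passed this comparison, beside 65.3% of all genes tested at an adjusted p below 0.05 and 19.2% whose log2 difference was also above 1 in size. Its exons share 16 bases with those of TTC6 on the opposite strand, which had at most 4 counts in any sample.

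HOXB13 (chromosome 17, 48724763 to 48729178, minus strand) had 13, 10 and 12 counts in vehicle-treated PC3 cells and 8, 7 and 12 after pentamidine treatment. It had 0 counts in each of the 6 DU145 samples, which allows up to 0.0711 CPM over the vehicle group and 0.0691 CPM over the pentamidine group at 3 counts per group. Its level was therefore at least 11.3-fold higher in PC3 than in DU145 cells with vehicle and at least 8.92-fold higher with pentamidine. These bounds allow for counting error in the DU145 samples only and take the mean of the PC3 samples as measured. HOXB13 was removed from the vehicle comparison by the filter on low counts, and no test is given for it there.

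KLK3 (chromosome 19, 50854915 to 50860764, plus strand) had 2 counts in 1 vehicle-treated PC3 sample, 1 count in 1 vehicle-treated DU145 sample and 0 in the other 10 samples. SPDEF (chromosome 6, 34537802 to 34556333, minus strand) had at most 1 count in any sample. FOLH1 (chromosome 11, 49146635 to 49208670, minus strand) had 1 count in 1 vehicle-treated DU145 sample and 0 in all others, and its copy FOLH1B had 1 count in 1 pentamidine-treated DU145 sample. FOLH1 shares 12.6% of the 150-base words of its longest transcript with FOLH1B, so that reads from such stretches could be lost from both. All 3 members were removed by the filter on low counts in each comparison. A fall of KLK3, SPDEF or FOLH1 was not detectable at this depth. KLK3 and FOLH1 had 0 counts in all treated samples, which allows up to 0.0688 CPM in PC3 and 0.0691 CPM in DU145 cells. These limits are taken at 3 counts per group, and a rise that stayed below them was not detectable either.

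The 250 bases upstream of the KLK3 start are shown because this is the best known androgen-induced promoter among the members. Capitals mark AGAACA, 1 arm of the element that the glucocorticoid receptor and its relatives recognise (RefSeq, GRCh38.p14, plus strand, chr19:50854665-50854914).
KLK3: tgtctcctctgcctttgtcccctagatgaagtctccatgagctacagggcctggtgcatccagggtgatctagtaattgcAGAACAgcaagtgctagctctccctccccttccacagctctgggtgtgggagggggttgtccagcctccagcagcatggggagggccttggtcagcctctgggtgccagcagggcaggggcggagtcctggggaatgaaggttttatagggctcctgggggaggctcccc

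The match begins 170 bases before the start. AGAACA on either strand was found in 14.8% of the 34943 promoter windows of 300 bases in RefSeq, and the exact palindrome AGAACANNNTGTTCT in 0.00286%. Neither was found in the windows of FOXA1, SPDEF, STEAP1 or STEAP1B, nor in the 7 windows of NR3C1. Only exact matches were sought, so a second arm that departs from TGTTCT, in KLK3 or elsewhere, would not be marked. The forkhead core TATTTAC, on either strand, was found once in the SPDEF window and in 2.68% of all windows, and TGTTTAC once in 1 of the 7 NR3C1 windows and in 3.42% of all. CCAATAAA, a core bound by HOXB13, was found in no member window and in 0.936% of all. Such matches describe letters only. The FOXA1 window held 34 CpG dinucleotides, that of STEAP1 27, those of KLK3 and SPDEF 2 and 8, and the median window 14. The FOXA1 window lies inside the span counted for that gene, not before its outer end. Whether CpG content goes with level was not tested. The 7 NR3C1 windows held between 0 and 51. HOXB13, FOLH1 and TMPRSS2 had no window.

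STEAP1 has a near copy, STEAP1B, elsewhere on chromosome 7 (22419444 to 22632925, minus strand). Stretches from the RefSeq promoter windows of both are shown because these are so alike in sequence while the counts were not. The stretch of STEAP1B lies inside the span counted for that gene, not before its outer end. The counts of STEAP1B therefore need not come from this start. Capitals mark the bases that differ (RefSeq, GRCh38.p14, chr7:90154219-90154374 on the plus strand and chr7:22500283-22500438 on the minus strand).
STEAP1: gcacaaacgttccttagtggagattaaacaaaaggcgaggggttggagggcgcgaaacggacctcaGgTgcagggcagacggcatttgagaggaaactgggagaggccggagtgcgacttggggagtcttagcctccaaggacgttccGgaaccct
STEAP1B: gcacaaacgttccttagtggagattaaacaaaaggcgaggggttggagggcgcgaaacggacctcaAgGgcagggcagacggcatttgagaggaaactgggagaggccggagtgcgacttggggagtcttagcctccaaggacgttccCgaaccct

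Of these 156 bases, 3 differed, an identity of 98.1%, and 10 of 300 differed over the whole windows. STEAP1B had 6, 3 and 7 counts in vehicle-treated PC3 cells and 67, 62 and 46 in vehicle-treated DU145 cells. The samples did not overlap, and the log2 difference of PC3 over DU145 cells was -3.5 (standard error 0.34, adjusted p = 1.45e-07, edgeR's quasi-likelihood test). The samples of STEAP1 overlapped between the lines. No 150-base word of the longest STEAP1 transcript is in a STEAP1B transcript, but 22.1% of its 50-base words are. The exons of STEAP1B also share 915 bases with AC002480.1 on the opposite strand, which had 26 to 38 counts in vehicle-treated DU145 samples and 8 to 12 in vehicle-treated PC3 samples. Since it is not stated whether counting used the strand, the value of STEAP1B is uncertain.

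**Figure D2:**
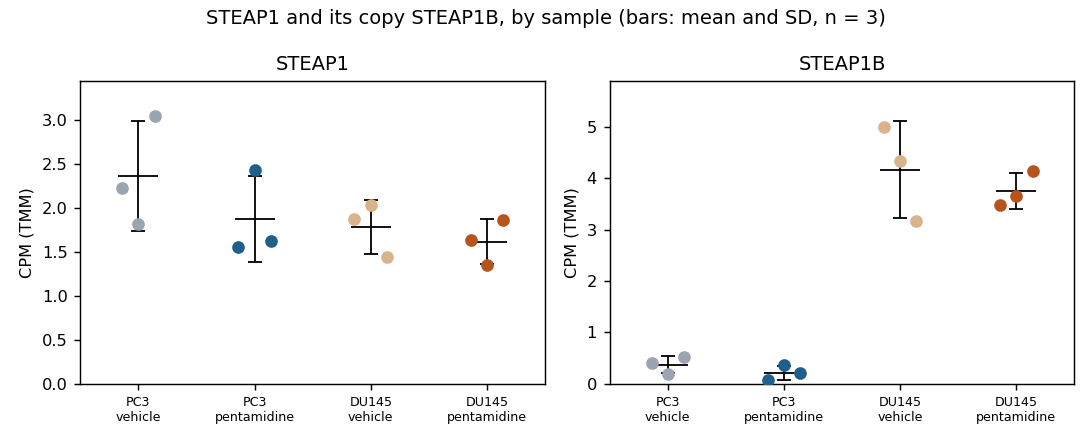
STEAP1 and STEAP1B in CPM on linear axes from 0, by group, with 1 point per sample and bars for the mean and SD of 3 samples. STEAP1 overlapped between the lines, whereas each DU145 sample of STEAP1B lay above each PC3 sample.

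No member tested passed both an adjusted p below 0.05 and a log2 fold change of 1 in either line. The 95% intervals of FOXA1 in both lines and of HOXB13 in PC3 cells reached past 1 in size, so larger responses were not excluded. Of the 4 members tested in PC3 cells, 2 had an adjusted p below 0.05, where 43.4% of all genes tested did, and 0 also passed a log2 fold change of 1, where 4.75% did. FOXA1 fell and NR3C1 rose. None of the 3 members tested in DU145 cells had an adjusted p below 0.05, where 34% of all genes tested did, and 2.03% also passed the fold change. In edgeR's test the unadjusted p of these 3 was 0.811, 0.672 and 0.098, so that 0 were below 0.05 there either, and DESeq2 also called 0.

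FOXA1 counts in PC3 cells were 73, 62 and 70 with vehicle and 34, 47 and 49 with pentamidine. All 3 treated samples lay below all 3 vehicle samples, and the level went from 4.71 ± 0.615 to 2.99 ± 0.6 CPM (SD, n = 3). The log2 fold change was -0.65 (standard error 0.2, 95% interval -1.08 to -0.22, adjusted p = 0.016, edgeR's quasi-likelihood test). The call was lost without vehicle replicate 3 (adjusted p = 0.0524, edgeR) and without pentamidine replicate 1 (adjusted p = 0.088, edgeR).

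In DU145 cells FOXA1 had 8, 18 and 4 counts with vehicle and 18, 10 and 22 with pentamidine. The groups overlapped, with a log2 fold change of 0.71 (standard error 0.42, 95% interval -0.13 to 1.55, adjusted p = 0.197, edgeR's quasi-likelihood test). Without vehicle replicate 2, which had the 18 counts, it was 1.42 (adjusted p = 0.0291, edgeR). It was 0.311 without vehicle replicate 3 (adjusted p = 0.646, edgeR) and 0.454 without pentamidine replicate 3 (adjusted p = 0.527, edgeR). The response of FOXA1 differed between the lines by -1.36 on the log2 scale, PC3 minus DU145 (standard error 0.49, adjusted p = 0.0477, edgeR's test of the interaction). It was the 1 of the 3 members tested in both lines to pass. Of all genes tested, 20.4% passed at an adjusted p below 0.05 and 2.62% also passed a difference of 1. This call was close to the threshold and was lost under RLE normalization (adjusted p = 0.0502, edgeR) and without any of 8 of the 12 samples (adjusted p from 0.0525 to 0.181, edgeR), which were vehicle replicate 3 and all pentamidine replicates of PC3 cells, and vehicle replicates 1 and 3 and pentamidine replicates 1 and 3 of DU145 cells. With 1 sample left out the difference ranged from -2.06 without DU145 vehicle replicate 2 (adjusted p = 0.00656, edgeR) to -0.953 without DU145 vehicle replicate 3 (adjusted p = 0.181, edgeR).

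NR3C1 in PC3 cells went from 890, 987 and 791 counts to 1030, 940 and 1027. After normalization the treated samples lay above all vehicle samples, at 68.7 ± 1.26 against 60.9 ± 2.76 CPM (SD, n = 3). The log2 fold change was 0.18 (standard error 0.061, 95% interval 0.05 to 0.31, adjusted p = 0.027, edgeR's quasi-likelihood test). The call was lost with DESeq2 (adjusted p = 0.0555), with library size alone (adjusted p = 0.0512, edgeR), without the filter on low counts (adjusted p = 0.0604, edgeR), and without vehicle replicate 3 or any 1 pentamidine replicate (adjusted p from 0.0511 to 0.0946, edgeR). In DU145 cells NR3C1 had 861, 906 and 886 counts after treatment, against 770, 819 and 995 with vehicle, and its log2 fold change was 0.014 (95% interval -0.1 to 0.13, adjusted p = 0.884, edgeR). The difference between the responses of the lines was 0.16 (standard error 0.088, adjusted p = 0.216, edgeR), so the lines were not shown to differ.

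STEAP1 had 23, 34 and 24 counts in pentamidine-treated PC3 cells, against 33, 28 and 41 with vehicle, and 23, 20 and 27 in pentamidine-treated DU145 cells, against 25, 29 and 21. The groups overlapped in both lines. Its log2 fold change was -0.33 (95% interval -0.92 to 0.26, adjusted p = 0.368, edgeR) in PC3 cells and -0.12 (95% interval -0.71 to 0.46, adjusted p = 0.785, edgeR) in DU145 cells. Both intervals cross 0. Leaving out 1 sample at a time gave -0.558 to -0.117 for the PC3 line and -0.258 to -0.0148 for the DU145 line.

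HOXB13 in PC3 cells also overlapped between groups, with a log2 fold change of -0.37 (95% interval -1.21 to 0.48, adjusted p = 0.493, edgeR's quasi-likelihood test). With 1 sample left out this ranged from -0.61 to -0.242. It remained at a trace in all 3 treated samples.

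**Figure D3:**
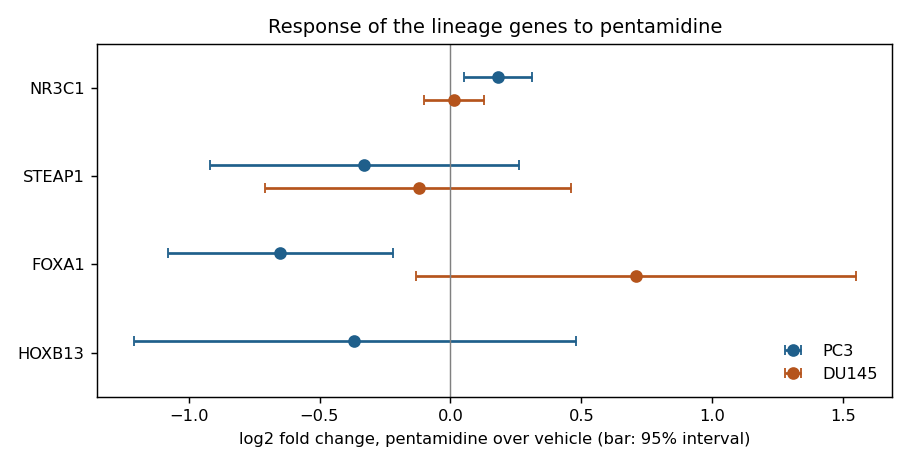
Log2 fold change of pentamidine over vehicle for the members tested in each line, on a linear log2 axis, with 95% intervals from edgeR. The intervals of FOXA1 and NR3C1 in PC3 cells do not cross 0, and all others do.

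The genes that steroid receptors induce were read from lists chosen for the pathway. Of 26 androgen-induced genes 19 were tested in PC3 cells, where 4 rose and 9 fell at an adjusted p below 0.05 and 2 of those that fell also passed the fold change, with a median log2 fold change of -0.26 against 0.0046 over all genes. In DU145 cells 2 rose and 8 fell of 19 tested, none past the fold change, with a median of -0.18 against 0.0085. Of all genes tested, 43.4% in PC3 and 34% in DU145 cells had an adjusted p below 0.05, and 4.75% and 2.03% also passed the fold change, and these shares hold beside each list that follows. HPGD, which encodes the enzyme that inactivates prostaglandins, fell from 20 to 33 counts per vehicle-treated PC3 sample to 2 to 6 (log2 fold change -2.47, standard error 0.42, adjusted p = 0.000163, edgeR). HERC3, a ubiquitin ligase gene, fell by 1.11 on the log2 scale in PC3 cells (adjusted p = 2.92e-05, edgeR). Among the most abundant genes of the list, NCAPD3, of condensin, fell by 0.75 in PC3 cells and by 0.24 in DU145 cells on the log2 scale (adjusted p = 7.81e-09 and 2.24e-07, edgeR). ACSL3, a fatty acid activating enzyme, did not pass (log2 fold changes 0.11 and 0.058). KLK2, the kallikrein next to KLK3 and also androgen-induced, had a mean of at most 0.069 CPM in any group.

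Of 20 glucocorticoid-induced genes 13 were tested in PC3 cells, where 7 rose and 3 fell at an adjusted p below 0.05, 4 and 1 of them past the fold change. The median was 0.6 against 0.0046 over all genes. In DU145 cells 3 rose and 6 fell of 15 tested, 2 and 1 past the fold change, with a median of 0.031 against 0.0085. These 10 of 13 and 9 of 15 genes stand beside 43.4% and 34% of all genes tested, and the 5 and 3 past the fold change beside 4.75% and 2.03%. TSC22D3, which encodes the glucocorticoid-induced leucine zipper protein, went from 101 to 123 counts per vehicle-treated PC3 sample to 1171 to 1351, a log2 fold change of 3.54, and in DU145 cells from 49 to 72 counts to 184 to 241, a log2 fold change of 1.77 (adjusted p = 1.3e-14 and 5.18e-15, edgeR). DDIT4, an inhibitor of mTORC1 that cell stress also induces, rose by 5.3 and 2.05 on the log2 scale (adjusted p = 1.99e-18 and 1.35e-34, edgeR). ERRFI1, which restrains EGF receptor signalling, rose by 1.39 in PC3 cells and by 0.19 in DU145 cells, and BCL6, a transcriptional repressor, rose by 1.82 in PC3 cells (adjusted p = 0.000337, edgeR). In the other direction ANGPTL4, a lipase inhibitor, fell in PC3 cells from 184 ± 3.18 to 88.5 ± 6.77 CPM (SD, n = 3), and NFKBIA, an inhibitor of NF-κB, fell by 1.62 in DU145 cells. FKBP5, a receptor co-chaperone on both the androgen and the glucocorticoid list, fell by 0.59 in PC3 cells and by 0.18 in DU145 cells (adjusted p = 4.76e-06 and 0.00331, edgeR). Genes of the list thus moved in both directions, and the part of NR3C1 in this was not tested.

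**Figure D4:**
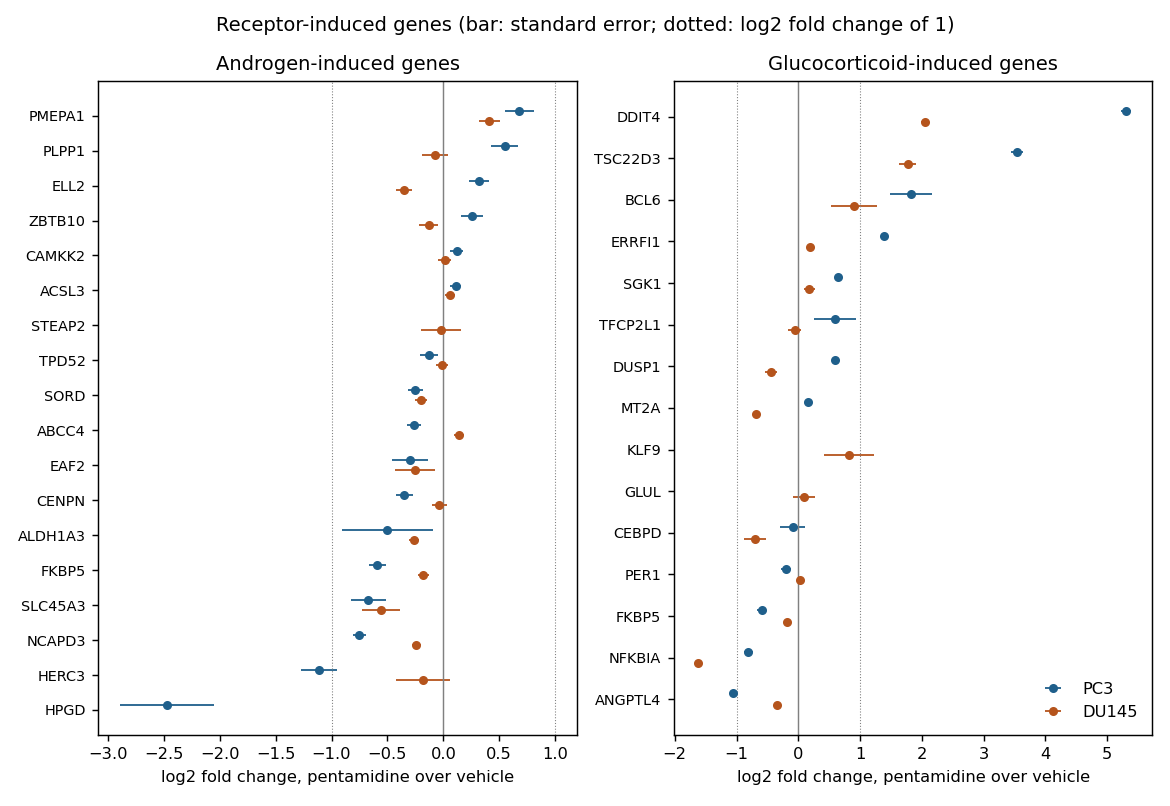
Log2 fold change of pentamidine over vehicle for tested genes of the androgen-induced and glucocorticoid-induced lists, PC3 in blue and DU145 in orange, with standard errors; dotted lines mark a log2 fold change of 1 in size. DDIT4 and TSC22D3 stood furthest above 0 in both lines, and HPGD furthest below 0 in PC3 cells.

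Of the 19 receptors, chaperones and cofactors found, 2 rose and 6 fell at an adjusted p below 0.05 among 13 tested in PC3 cells, and 3 rose and 6 fell among 14 tested in DU145 cells. HSP90AB1, HSP90AA1 and STIP1, of the chaperone machinery for steroid receptors, were the most abundant, and each fell in both lines. HSP90AA1 fell by 0.73 in PC3 and by 0.26 in DU145 cells on the log2 scale. NCOA3, a coactivator gene, fell by 1.02 in PC3 cells (adjusted p = 7.42e-11, edgeR) and by 0.22 in DU145 cells. Among 14 other lineage transcription factors, 0 rose and 1 fell of 6 tested in PC3 cells, and 2 rose and 1 fell of 7 tested in DU145 cells. SOX9, of progenitor cells, fell by 0.59 in PC3 cells and rose by 0.26 in DU145 cells. FOXP1 resembled FOXA1 in being higher in vehicle-treated PC3 cells, with 38.8 CPM against 0.28 CPM in DU145 cells (log2 difference 7.02, adjusted p = 1.73e-14, edgeR), and TBX3 did not pass in either line.

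Among the paralogs, 6 of 14 further kallikreins were found, and 5 of them had 3 counts or fewer in every sample, like KLK3. The relative of FOLH1 with most reads was NAALAD2, which fell in PC3 cells by 1.77 on the log2 scale (adjusted p = 0.000592, edgeR). Of the STEAP family, STEAP3 fell by 0.56 in PC3 cells and by 0.33 in DU145 cells, and STEAP2 had 0.838 CPM in vehicle-treated PC3 against 4.72 CPM in vehicle-treated DU145 cells.

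Over the 12 samples and 13456 genes with a mean of at least 1 CPM, the genes whose log2(CPM + 1) was most like that of FOXA1 were KBTBD3, ZMIZ2 and PHKG2, each with a Pearson r of 0.961. For NR3C1 they were AC017100.1, MRPL30 and UBE2J1 (r from 0.875 to 0.929), and for STEAP1 ALG14, MRPS18A and FUCA1 (r from 0.819 to 0.861). These values describe the libraries, which share the cell line and the treatment, and were not tested.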

How the data were processed

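The 12 libraries were 3 each of PC3 and DU145 cells after 48 hours with pentamidine (2.5 μmol/L) or vehicle. According to the methods and the submitters' processing notes, the authors enriched mRNA with Oligo(dT), sequenced it on an Illumina NovaSeq and aligned the reads with HISAT2 2.1.0 to GRCh38. The counter, its annotation and its use of strand are not given in the sources used here. The counts per gene were deposited by the authors as whole numbers without normalization. Total counts, and hence precision, are given with the results, and limits from 0 counts cover counting error only. A deposited table of values named FPKM and tables of the authors' own comparisons (DESeq 1.18.1; fold changes and p-values) were not used. Groups and replicates came from the sample labels. The count table had 33595 entries with an Ensembl identifier, and entries that repeated a name with identical counts were merged, leaving 32077 genes.

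Counts were tested with edgeR 4.0.16 (R 4.3.3), using TMM normalization, filterByExpr at a minimum count of 10, the quasi-likelihood test and Benjamini-Hochberg adjustment over all genes tested. Each line was fitted with its own 6 samples, the lines under vehicle with 6 samples, and the difference of responses as an interaction over 12. The script was tested on simulated data. RPKM was CPM divided by the exon length of GENCODE 29. Promoters came from RefSeq (GRCh38.p14). The alternatives were DESeq2 1.42.0, RLE factors, library size alone, no filter, at least 10 counts in every sample, all 12 samples in one fit, the replicate block, an adjusted p below 0.01, other limits of CPM, and each sample left out in turn. Members and lists were chosen with earlier results of these data known. From each list the genes named are those past the thresholds (at most 4 a list and line, largest first) and the 3 with the highest mean CPM in vehicle samples. FKBP5 and KLK2 were named outside this rule, after their values were seen. A few genes that enter the counts of a list are not reported here.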

Additional observations from a re-analysis of the deposited data

Results flagged for a closer look

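The response to pentamidine differed between the lines for FOXA1 by -1.36 on the log2 scale (PC3 minus DU145, adjusted p = 0.0477, edgeR's test of the interaction), 1 of the 3 members in which it could be tested. That call was lost without any of 8 of the 12 samples, with RLE normalization (adjusted p = 0.0502, edgeR) and with the replicate block (adjusted p = 0.0798, edgeR), and the difference ranged from -2.06 to -0.953 with 1 sample left out. The same test passed for 16 further genes named in the text, and for 20.4% of all genes tested. Genes were named for a called change in a line, for a high level or after their values were seen. The number that passed is therefore not a share of the lists. Among the glucocorticoid-induced genes the difference was 3.25 for DDIT4, 1.78 for TSC22D3, 1.2 for ERRFI1, 0.86 for MT2A, 0.81 for NFKBIA, -0.71 for ANGPTL4 and -0.41 for FKBP5, which is also on the androgen list. Among the androgen-induced genes it was -1.35 for STEAP2, -0.93 for HERC3 and -0.51 for NCAPD3. For the receptor cofactors and chaperones it was -0.79 for NCOA3, -0.48 for HSP90AA1 and -0.32 for STIP1, and for the lineage factor SOX9 it was -0.85. For the keratins KRT8 and KRT18 it was 0.34 and 0.74. Of these, DDIT4 and TSC22D3 rose in both lines and NFKBIA, NCOA3 and HSP90AA1 fell in both lines, so that the difference is one of size, whereas 3 genes moved in opposite directions. SOX9 fell in PC3 cells and rose in DU145 cells. MT2A rose by 0.16 in PC3 cells (adjusted p = 0.0284, edgeR) and fell by 0.69 in DU145 cells (adjusted p = 6.73e-26, edgeR) on the log2 scale, and KRT18 rose by 0.35 in PC3 cells (adjusted p = 0.0006, edgeR) and fell by 0.39 in DU145 cells (adjusted p = 1.14e-15, edgeR). For STEAP2 it rests on 3 to 16 counts per PC3 sample.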

How the results depend on the processing

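Of the 4 members tested in PC3 cells, 2 had an adjusted p below 0.05. This count was 1 with DESeq2, with library size alone, with no filter on low counts and with the replicate number as a block, 0 at an adjusted p below 0.01, and 0 to 2 with 1 sample left out. In DU145 cells it was 0, and 0 to 1 with 1 sample left out. For the difference of responses it was 1, but 0 with RLE normalization, with at least 10 counts in every sample (where FOXA1 was no longer tested), with the replicate block and at an adjusted p below 0.01, and 0 to 1 with 1 sample left out. For vehicle-treated PC3 against DU145 cells it was 1, and 2, with HOXB13 (at 0 in all DU145 samples) tested as well, with no filter and with all 12 samples in one fit, 0 with at least 10 counts in every sample, and 1 to 2 with 1 sample left out. With at least 10 counts in every sample, fewer genes were tested and those past both thresholds over the whole table went from 658 to 431 in PC3 cells, from 290 to 154 in DU145 cells, from 399 to 251 for the difference of responses and from 2768 to 1432 between the lines. The genes on in PC3 cells went from 3 to 4 at a limit of 0.5 CPM and to 2 at 2 CPM, and those on in DU145 cells from 2 to 1 at 2 CPM. No called member changed direction. Of the values that were not called, NR3C1 in DU145 cells turned to -0.035 and -0.0317 without vehicle replicate 1 or 2 (up to 0.105 without another sample), and NR3C1 between the lines to 0.0498 with library size alone and to 0.0111 and 0.0603 without PC3 vehicle replicate 3 or DU145 vehicle replicate 3 (down to -0.0756 without another sample). STEAP1 in the difference of responses turned to 0.0131 without PC3 vehicle replicate 3 (down to -0.427 without another sample). The cause was not tested. No sign of pairing by replicate number was seen, which does not show that the samples were unpaired. Vehicle and pentamidine samples of a line with the same number had correlations of their deviations of -0.125 to 0.0319. For vehicle samples of PC3 against DU145 cells these were -0.00258 to 0.0518. With the replicate block NR3C1 in PC3 cells had an adjusted p of 0.0501 and FOXA1 in the difference of responses one of 0.0798 (edgeR). Depth limits what can be said of HOXB13 and STEAP1 in both lines and of FOXA1 in DU145 cells, with at most 41 counts in any sample.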

Other observations

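Markers of neuroendocrine cells, which some androgen-independent tumours express, were present in part in both lines. SYP, which encodes the vesicle protein synaptophysin, had 14.8 CPM in vehicle-treated PC3 and 28.8 CPM in vehicle-treated DU145 cells, and rose after pentamidine treatment by 0.34 in PC3 cells (adjusted p = 0.0108, edgeR) and by 0.28 in DU145 cells (adjusted p = 0.00233, edgeR) on the log2 scale. CHGB, a granin, rose by 1.23 in DU145 cells (adjusted p = 0.00247, edgeR) at a mean of 0.903 CPM with vehicle and 2.1 CPM with pentamidine. ENO2, also a glycolytic enzyme, fell by 0.49 in PC3 cells (adjusted p = 0.000458, edgeR). These genes were chosen after their values were seen.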
